A study of Homo sapiens with 12 samples.

Results

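The genes described here are the secreted Wnt ligands, their receptors and co-receptors, the R-spondins that strengthen the signal, the secreted antagonists that weaken it, and a few nuclear and feedback components. They were chosen by name: protein-coding genes whose symbol begins with WNT, FZD, SFRP, DKK or RSPO followed by a digit, plus LRP5, LRP6, AXIN2, LEF1, TCF7, NKD1, NOTUM and WIF1. This gave 49 of the 58302 genes counted: 19 WNT ligands, 4 R-spondins, 10 Frizzled receptors, 2 co-receptors, 10 secreted antagonists, 2 transcription factors and 2 feedback inhibitors. Of these, 29 had a mean of at least 20 reads over the 12 samples and were tested, and 20 did not.

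All cells came from H1, a human embryonic stem cell line. RNA-seq was done on 6 groups of 2 samples each. WT and dKO neural progenitor cells (NPCs) were taken early and again at passage 4 (P4), and WT and dKO cells were taken at day 28 of differentiation. The dKO cells lack the catalytic region of both H3K27 demethylases, JMJD3 (KDM6B) and UTX (KDM6A). The knockouts were made by putting a puromycin cassette in its place and picking clones, and the labels do not say how many clones the dKO samples came from. The labels name the passage only for the P4 cells; the study describes its early NPCs, from which the day 28 cells were also started, as passage 2. NPCs of both genotypes were made with the TGF-beta and BMP pathway inhibitors SB431542 and dorsomorphin and kept as neurospheres with FGF2 and EGF, which the day 28 cells no longer received while they were given BDNF, GDNF and cAMP. The labels do not say that the samples of a group were separate cultures, so p-values measure only the spread between these samples, which may be technical.

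Wnt ligands are lipid-modified secreted proteins that bind a Frizzled receptor together with LRP5 or LRP6. In the best known branch this stops the destruction of beta-catenin, which then acts with LEF1 or TCF proteins on target genes such as AXIN2. In the developing brain, Wnt ligands are made along the dorsal midline and the cortical hem, where they help to pattern the dorsal forebrain and to keep progenitors dividing.

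Reads per sample assigned to genes ranged from 756942 to 10601172, fewest in the early NPCs and most at day 28 of WT. The level that 3 reads gave ran from 3.85 CPM (counts scaled to equal library size) in the shallowest sample to 0.298 CPM in the deepest, counting error only. The 2 dKO day 28 samples stood apart from each other: 9 of the 29 members tested differed by over 2-fold between them, against 2 in each early NPC group and 0 in each of the other 3 groups. The dKO day 28 results of named genes are therefore given with both sample values. KDM6A stood at 27.3 to 58.4 CPM in dKO and at 43.7 to 60.3 CPM in WT samples, and KDM6B at 144 to 185 CPM in dKO and 115 to 202 CPM in WT; the reads cover the whole of each gene, so neither level checks the deletion. Of 7 progenitor markers, SOX2, SOX1, NES and VIM were present in all 12 samples and HES5 was at 2.57 CPM or less. Of the 6 tested, 0 were called higher and 2 lower in dKO at P4, and 1 higher and 1 lower at day 28. SOX2 was at 486 and 509 CPM in WT P4 against 219 and 215 CPM in dKO P4. PAX6 was at 11.7 and 11.5 CPM in WT day 28 samples against 187 and 351 CPM in dKO, and FABP7 at 1861 and 1699.7 CPM in WT P4 against 85.8 and 78.0 CPM in dKO P4. Among stem cell markers, POU5F1 and NANOG had 0 reads in every sample.

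Markers of other cell types moved with genotype. The summed level of 7 neuron markers was 4067 and 4614 CPM in WT P4 NPCs against 774 and 805 CPM in dKO P4 NPCs. At day 28 this sum was 3423 and 3425 CPM in WT against 1041 and 600.2 CPM in dKO. Early NPCs had neuron sums of 1280 and 1127 CPM (WT) and 1010 and 930 CPM (dKO). By P4 the neuron sum had therefore risen in WT and not in dKO. A list of 7 dorsal midline and choroid plexus markers summed to 10.2 and 9.14 CPM in WT P4 against 133 and 133 CPM in dKO P4, and to 7.58 and 6.75 CPM in WT against 27.9 and 52.8 CPM in dKO at day 28. LMX1A, MSX1, GDF7 and CLIC6 made up this rise, while TTR and FOLR1, which mark mature choroid plexus, stayed at or under 1.39 CPM. The midline list was low early in both genotypes, with sums of 2.57 and 5.86 CPM (WT) and 5.17 and 10.4 CPM (dKO). Of 4 tested neural crest and mesenchyme markers, 3 were higher in dKO at P4, and 3 were higher and 1 lower at day 28. COL1A1 was at 20.8 and 27.7 CPM in WT P4 against 504 and 518 CPM in dKO P4. At day 28 COL1A1 was at 19.5 and 20.1 CPM in WT against 151 and 78.7 CPM in dKO. Early dKO NPCs already had COL1A1 at 563 and 665 CPM, where the early WT values were 97.6 and 260 CPM. COL3A1 was higher in dKO at P4 and at day 28 lower, with 51.5 and 54.9 CPM in WT day 28 samples against 18.4 and 7.22 CPM in dKO. PDGFRA was higher in dKO at both stages and LUM at day 28, while SOX10 and FOXD3 stayed under 1 CPM everywhere. Of 4 tested astrocyte markers, GFAP, AQP4 and S100B were lower in dKO at both stages, and GJA1 was higher, with 92.4 and 86.6 CPM in WT P4 against 594 and 633 CPM in dKO P4. The endothelial marker KDR was at 1.98 and 3.81 CPM in WT P4 against 79.3 and 85.5 CPM in dKO P4. At day 28 KDR was at 0.592 and 0.596 CPM in WT against 16.5 and 13.7 CPM in dKO, while CDH5 was at or under 1.28 CPM. KDR was also present early, with 20.5 and 28.6 CPM (WT) and 50.2 and 52.2 CPM (dKO). LIN28A, an early progenitor and stem cell gene, was at 0.990 and 0.508 CPM in WT P4 against 30.9 and 33.3 CPM in dKO P4. Early levels of LIN28A were higher: 86.0 and 82.8 CPM (WT), 85.7 and 78.6 CPM (dKO). It was called lower at P4 than early for each genotype, with log2 changes of -6.82 (WT) and -1.36 (dKO). In bulk samples, fewer cells of a type and less RNA per cell cannot be told apart, and the part of these cell types in the results below was not tested.

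More Wnt genes were called between genotypes at P4 and day 28 than in early NPCs, and so were more of all genes. The early samples had the fewest reads, so fewer early calls do not show that the genotypes were alike then. A member was called when the fold change exceeded 2 at an adjusted p below 0.05 in edgeR's quasi-likelihood test over 13454 genes. Where dKO is set against WT, a rise or fall is the level in dKO relative to WT at the same stage. In early NPCs, 0 members were called higher in dKO, where 0.981% of all genes were, and 2 of 29 were called lower, where 0.498% were. With an unadjusted p, 1 member was higher, and with DESeq2 also 1. At P4, 16 of 29 members were higher in dKO, against 11.0% of all genes, and 4 were lower, against 11.1%. At day 28, 17 were higher, against 12.4% of all genes, and 3 were lower, against 11.7%. The filter for testing used mean reads over all samples, including those compared, for members and all genes alike. A gene high in a single genotype at a later stage could pass through those reads. RSPO1 had 243 and 212 reads in dKO P4 against 23 and 37 in WT P4. WNT7A, lower in dKO, had 183 and 198 reads in WT at day 28 against 34 and 11 in dKO. How many members passed this way was not counted, so tallies here and below cover only the members tested. Without dKO day 28 replicate 1, 23 members were called at day 28, 19 of them higher, and without replicate 2, 19 were called, 15 of them higher.

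The P4 and day 28 comparisons share no samples. The members called higher in dKO in both were WNT5A, WNT5B, WNT7B, WNT8B, WNT9A, RSPO1, RSPO2, FZD1, FZD4, FZD6, SFRP2, LEF1, TCF7 and AXIN2, which were 87.5% of the members higher at P4 and 82.4% of those higher at day 28. Over all genes tested, 725 were higher in both, 49.1% and 43.5% of the respective calls. WNT7A and DKK3 were lower in dKO in both. SFRP1 changed sides, lower in dKO at P4 and higher at day 28. WNT2B, FZD2, FZD3, FZD5, LRP5 and LRP6 were called in neither.

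**Figure D1:**
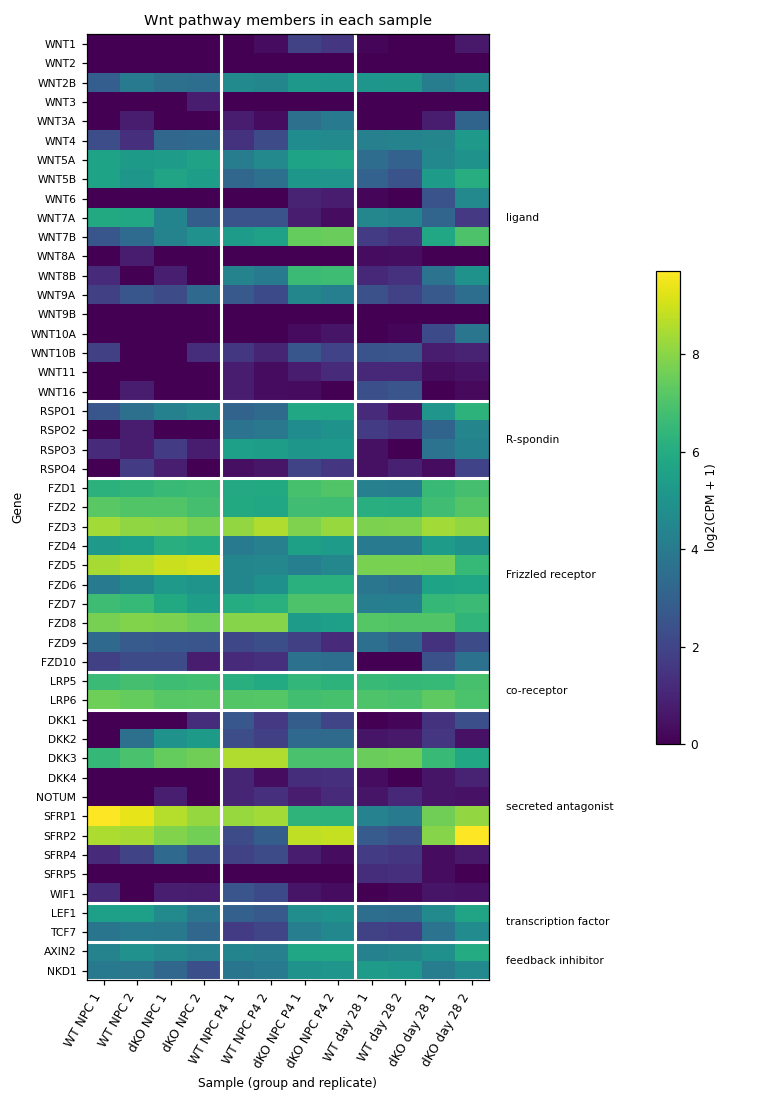
Level of all 49 members, as log2(CPM + 1), in each of the 12 samples, grouped by class; white lines separate classes and stages. SFRP1, SFRP2, FZD3, FZD5 and FZD8 hold the brightest rows in early NPCs, and WNT8B, RSPO2 and RSPO3 are dark in early NPCs of both genotypes and lighter at P4.

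**Figure D2:**
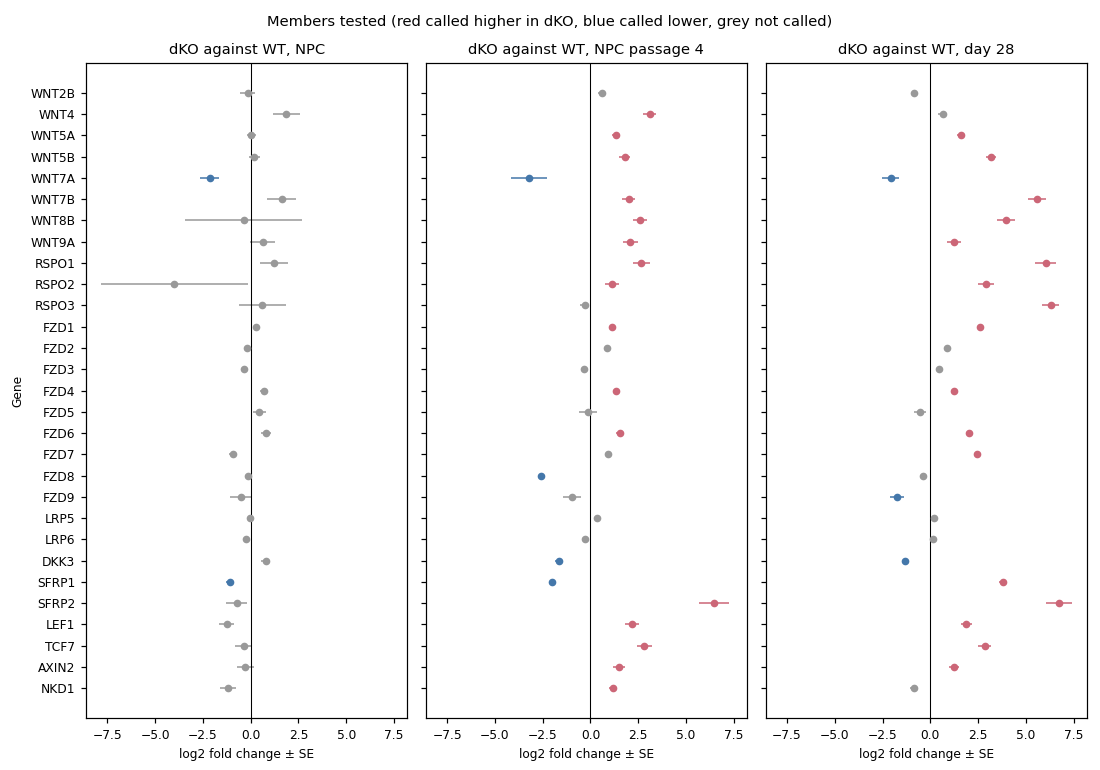
Log2 fold change of dKO over WT ± SE for the 29 members tested, in early NPCs, at P4 and at day 28; red marks members called higher in dKO, blue lower, grey not called. The early panel holds 2 called members, the P4 panel 20 and the day 28 panel 20.

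More ligands were called between genotypes at P4 and day 28 than in early NPCs. WNT8B, a ligand of the cortical hem, had 1 read in the early samples of each genotype. At P4 it stood at 19.5 and 14.5 CPM in WT against 97.8 and 104 CPM in dKO, a log2 difference of 2.59 ± 0.35 (SE; adjusted p = 0.000122). At day 28 it was at 1.18 and 1.59 CPM in WT against 11.9 and 31.0 CPM in dKO (3.94 ± 0.47, adjusted p = 3.9e-05; 3.06 without dKO replicate 2). The genotypes did not overlap at either stage, and WNT8B came on with passage in both. With 2 samples against 2, lack of overlap is weak evidence here and below, since an exact permutation test cannot go below 0.333. The share of all genes without overlap was not counted.

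WNT7B followed the same order. In early NPCs it was at 5.13 and 9.53 CPM in WT against 19.2 and 29.2 CPM in dKO, a log2 difference of 1.62 ± 0.77 that did not pass (adjusted p = 0.372). At P4 it stood at 39.6 and 46.7 CPM in WT against 169 and 178 CPM in dKO (2.01 ± 0.35, adjusted p = 0.00142), and at day 28 at 2.25 and 1.59 CPM against 55.1 and 127 CPM (5.58 ± 0.47, adjusted p = 1.22e-05; 4.84 without dKO replicate 2). The change in WT from early NPCs to day 28 did not pass (-2.04 ± 0.96, adjusted p = 0.119), and both dKO day 28 samples lay above every WT sample of the 3 stages.

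WNT7A, the close relative of WNT7B, went the other way. It was at 59.0 and 55.7 CPM in early WT NPCs and at 19.9 and 6.26 CPM in early dKO NPCs (fell by 2.14 ± 0.50 on the log2 scale, adjusted p = 0.0496). At P4 it was at 4.62 and 4.57 CPM in WT against 0.692 and 0.241 CPM in dKO (fell by 3.20 ± 0.95, adjusted p = 0.0153), and at day 28 at 21.7 and 19.7 CPM against 8.11 and 2.09 CPM (fell by 2.07 ± 0.45, adjusted p = 0.00224; -3.28 without dKO replicate 1 and -1.34 without replicate 2). Every WT sample lay above the dKO samples of its stage. The early call was lost in 9 of the 12 fits that left out 1 sample, with adjusted p up to 0.320 (-1.52, without dKO NPC replicate 2), and was -3.19 without dKO NPC replicate 1. At P4, leaving out any 1 of the 4 P4 samples gave adjusted p between 0.0527 and 0.0951.

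WNT5A and WNT5B, ligands best known for signalling without beta-catenin, were higher in dKO than in WT at P4 and day 28. WNT5B was at 48.8 and 34.5 CPM in early WT and 49.5 and 43.1 CPM in early dKO NPCs, fell to 8.25 and 10.9 CPM in WT P4 and to 7.22 and 4.57 CPM in WT at day 28, and stood at 34.6 and 32.6 CPM in dKO P4 and at 38.9 and 65.0 CPM in dKO at day 28. The dKO over WT difference was 1.79 ± 0.29 at P4 (adjusted p = 0.000144) and 3.16 ± 0.26 at day 28 (adjusted p = 1.24e-07). WNT5A was at 48.8 and 38.1 CPM in early WT, 39.9 and 47.3 CPM in early dKO, 16.2 and 22.6 CPM in WT P4, 49.1 and 50.5 CPM in dKO P4, 10.1 and 7.25 CPM at day 28 of WT and 21.9 and 29.6 CPM at day 28 of dKO. Its differences were 1.35 ± 0.21 at P4 (adjusted p = 6.37e-05) and 1.59 ± 0.21 at day 28 (adjusted p = 1.05e-05). Within dKO, WNT5A was lower at day 28 than in early NPCs (-0.75 ± 0.23, adjusted p = 0.0462), below the 2-fold limit. In early NPCs the interval of the difference between genotypes ran from -0.46 to 0.86 for WNT5B and from -0.50 to 0.58 for WNT5A.

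WNT4 and WNT9A rose in dKO at P4. WNT4 was at 1.65 and 3.81 CPM in WT P4 and 25.4 and 23.4 CPM in dKO P4 (3.09 ± 0.37, adjusted p = 4.05e-06; 3.87 without WT P4 replicate 2). At day 28 it was at 17.9 and 19.1 CPM in WT against 20.5 and 37.2 CPM in dKO, a difference of 0.66 ± 0.24 below the 2-fold limit, and in early NPCs at 3.85 and 1.47 CPM against 8.12 and 9.05 CPM (1.86 ± 0.71, adjusted p = 0.208). WNT9A was at 5.61 and 3.55 CPM in WT P4 against 20.8 and 17.4 CPM in dKO P4 (2.09 ± 0.38, adjusted p = 0.000277). At day 28 it was at 4.26 and 2.68 CPM against 5.49 and 10.4 CPM (1.24 ± 0.37, adjusted p = 0.00914), a call lost without dKO day 28 replicate 2 (0.68, adjusted p = 0.172), without WT day 28 replicate 2 (0.92, adjusted p = 0.117) and when only the day 28 samples were fitted (adjusted p = 0.0657). WNT9A stood between 2.57 and 9.05 CPM in the 4 early samples. WNT2B, from 6.42 to 35.3 CPM over all samples, missed the 2-fold limit in all 3 comparisons of genotype, with differences of 0.62 ± 0.20 at P4 and -0.83 ± 0.19 at day 28.

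Levels per kilobase of merged exons allow a rough comparison of genes, which depends on the exon lengths in the annotation. On this scale the summed ligand level was 35.9 and 31.3 RPKM in early WT and 29.3 and 29.6 RPKM in early dKO. It was 27.3 and 26.8 RPKM in WT P4 and 115 and 119 RPKM in dKO P4. At day 28 it was 20.3 and 19.1 RPKM in WT and 42.0 and 92.7 RPKM in dKO. The leading ligand also changed. WNT7A made up 36.3% and 39.3% of the early WT sum and 23.5% and 22.7% of the WT sum at day 28. WNT5B led in early dKO NPCs with 39.8% and 34.3%. In dKO P4, WNT8B held 39.5% and 40.9%, and in dKO at day 28 WNT7B held 25.8% and 26.9%. The lead of WNT8B in dKO P4 rests on its exon length of 2144 bases against 5080 for WNT7B, which had the higher CPM there. In WT P4, WNT8B led in 1 sample (33.3%) and WNT7B in the other (34.3%).

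**Figure D3:**
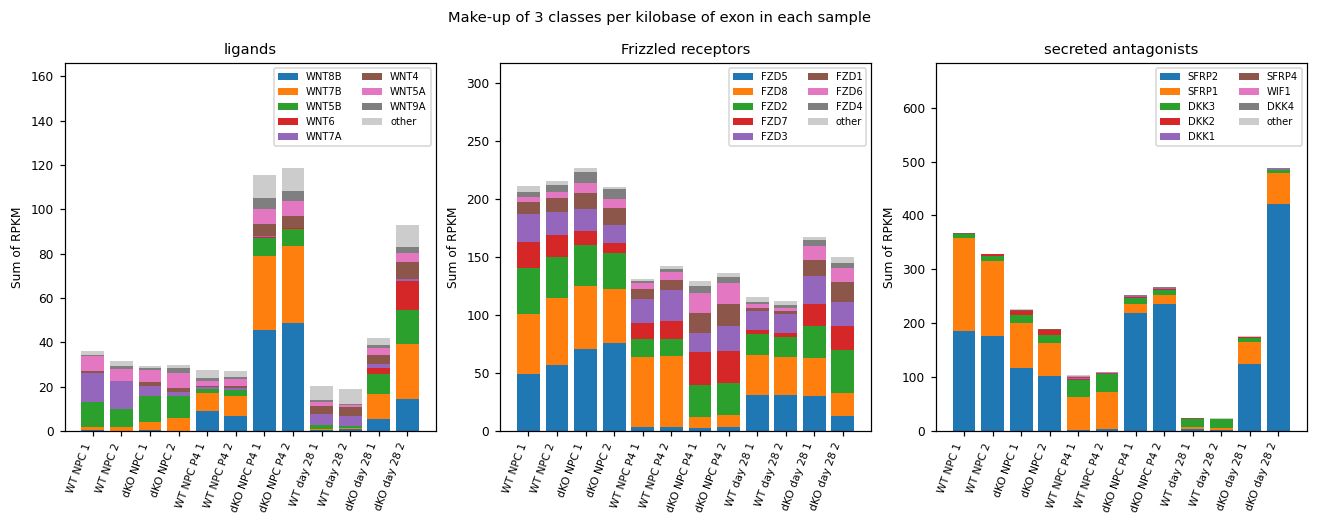
Summed RPKM of the WNT ligands, the Frizzled receptors and the secreted antagonists in each sample, split by gene; the 8 genes with the highest single-sample level are coloured and the rest are grey. The ligand sum is highest in both dKO P4 samples (115 and 119 RPKM), and the antagonist sum is lowest at day 28 of WT (24.1 and 23.1 RPKM).

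The other 11 ligands were under the limit of 20 mean reads: WNT1, WNT2, WNT3, WNT3A, WNT6, WNT8A, WNT9B, WNT10A, WNT10B, WNT11 and WNT16. WNT2 and WNT9B had 0 reads in all samples, WNT3 reached 1 read and WNT8A 3 reads. For these and the other low members the test was run over the 34982 genes with at least 1 read, in which 0.649%, 6.30% and 7.64% of genes were called higher in dKO in early NPCs, at P4 and at day 28, and 5.79% and 7.10% were called lower at P4 and day 28. WNT3A, a beta-catenin ligand of the cortical hem, had 3 reads in the 2 WT P4 samples together and stood at 11.1 and 15.2 CPM in dKO P4, a ratio of 30.4 (95% counting interval 10.1 to 150, edgeR adjusted p = 9.24e-14). At day 28 WNT3A had 0 reads in WT and was at 0.715 and 7.79 CPM in dKO, at least 28.7-fold higher against a floor of 3 reads over the WT group, nearly all of it from 1 dKO sample.

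WNT6 and WNT10A lie head to tail on chromosome 2, 6619 bases apart, and appeared together in dKO at day 28. WNT6 was at 4.53 and 22.6 CPM there, against 1 read in WT (ratio 270, counting interval 47.7 to 10749, adjusted p = 2.33e-27). WNT10A was at 3.58 and 12.9 CPM, also against 1 read in WT (ratio 163, interval 28.4 to 6495, adjusted p = 3.41e-18). Both were highest in dKO day 28 replicate 2 and had 0 reads in all early samples. In dKO P4, WNT6 was at 0.922 and 0.724 CPM and WNT10A at 0.231 and 0.483 CPM.

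3 other pairs of ligands lie next to each other. WNT3A and WNT9A, 59066 bases apart on chromosome 1, were both higher in dKO P4. WNT1 and WNT10B lie 6587 bases apart on chromosome 12. At P4 WNT1 was at 2.77 and 1.93 CPM in dKO against 1 read in WT (ratio 16.4, interval 2.63 to 681, adjusted p = 0.00932). WNT10B was at 5.07 and 2.90 CPM in dKO P4 against 1.98 and 1.02 CPM in WT P4, which did not pass (1.43 ± 0.57, adjusted p = 0.0581). At day 28 WNT10B was lower in dKO, with 0.715 and 0.950 CPM against 4.74 and 4.97 CPM (fell by 2.53 ± 0.54 on the log2 scale, adjusted p = 2.22e-05). WNT1 was not called at day 28 (1.98 ± 1.44, adjusted p = 0.412). WNT3 and WNT9B, on chromosome 17, were near or at 0 throughout. WNT16 was at 4.14 and 4.87 CPM in WT at day 28 against 1 read in dKO (adjusted p = 1.64e-08), and WNT11 reached at most 1.21 CPM in any sample.

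**Figure D4:**
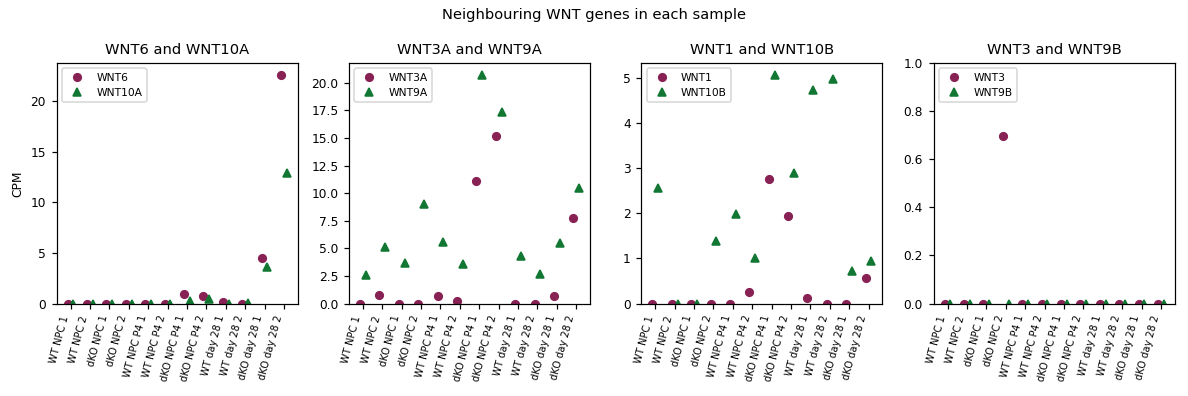
CPM of 4 pairs of neighbouring WNT genes in each of the 12 samples, circles for the first named and triangles for the second. WNT6 and WNT10A rise together in the 2 dKO day 28 samples, WNT3A and WNT9A in the 2 dKO P4 samples, and WNT3 and WNT9B stay at or near 0.

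The R-spondins bind LGR receptors and keep Frizzled proteins at the cell surface. The 3 tested were called higher in dKO at both later stages, except RSPO3 at P4. RSPO1 was at 5.13 and 11.0 CPM in early WT and 18.5 and 23.0 CPM in early dKO (1.24 ± 0.73, adjusted p = 0.478), at 7.59 and 9.39 CPM in WT P4 and 56.0 and 51.2 CPM in dKO P4 (2.65 ± 0.45, adjusted p = 0.000895), and at 1.30 and 0.397 CPM in WT against 32.7 and 77.7 CPM in dKO at day 28 (6.05 ± 0.54, adjusted p = 8.9e-06). Its day 28 difference ran from 5.28 to 7.01 with 1 sample left out. RSPO1 did not overlap between genotypes at any stage, though its early difference did not pass.

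RSPO2 and RSPO3 were nearly absent from early NPCs of both genotypes, with at most 1 and 3 reads in a sample. RSPO3 stood at 44.2 and 42.1 CPM in WT P4 and 33.9 and 35.5 CPM in dKO P4, a difference of -0.31 ± 0.23 (adjusted p = 0.271). By day 28 RSPO3 had 3 reads in WT, all in 1 sample, and was at 11.9 and 18.1 CPM in dKO, a ratio of 94.6 (counting interval 31.7 to 464, edgeR adjusted p = 1.33e-08). RSPO2 was at 11.9 and 14.0 CPM in WT P4 and 25.1 and 31.2 CPM in dKO P4 (1.12 ± 0.35, adjusted p = 0.0181), and at 2.25 and 1.59 CPM in WT against 7.87 and 20.3 CPM in dKO at day 28 (2.90 ± 0.41, adjusted p = 5.74e-05; 2.04 without dKO replicate 2). The P4 call of RSPO2 was lost in DESeq2 (adjusted p = 0.0504) and without 3 of the 4 P4 samples in turn (adjusted p from 0.0764 to 0.110). RSPO4, under the limit, had 3 reads in WT P4 and 21 in dKO P4 (ratio 5.75, counting interval 1.72 to 30.1, adjusted p = 0.0291 in the test over 34982 genes) and at most 15 reads in any sample.

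Among the Frizzled receptors, FZD1, FZD4 and FZD6 were higher in dKO at both later stages and FZD8 was lower at P4. FZD1 was at 74.4 and 81.4 CPM in early WT and 93.8 and 99.5 CPM in early dKO, at 57.8 and 58.6 CPM in WT P4 and 118 and 135 CPM in dKO P4 (1.12 ± 0.13, adjusted p = 2.23e-06), and at 17.9 and 16.9 CPM in WT against 95.4 and 114 CPM in dKO at day 28 (2.60 ± 0.13, adjusted p = 2.56e-10). FZD1 fell in WT from early NPCs to day 28 (-2.18 ± 0.16, adjusted p = 2.55e-08) and was not called in dKO over the same step.

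FZD6 was at 15.4 and 22.0 CPM in early WT and 36.2 and 31.3 CPM in early dKO, at 20.8 and 28.2 against 70.6 and 71.5 CPM at P4 (1.53 ± 0.17, adjusted p = 1.51e-06), and at 12.9 and 11.7 against 48.7 and 51.3 CPM at day 28 (2.03 ± 0.16, adjusted p = 3.65e-08). FZD4, which also serves as the receptor of Norrin, was at 35.9 and 44.0 CPM in early WT and 68.7 and 62.6 CPM in early dKO, at 15.2 and 18.0 against 44.7 and 40.8 CPM at P4 (1.36 ± 0.18, adjusted p = 1.46e-05), and at 14.6 and 15.2 against 40.3 and 30.8 CPM at day 28 (1.25 ± 0.17, adjusted p = 9.56e-06). Neither gene overlapped between genotypes at any stage, but in early NPCs FZD6 (0.79 ± 0.25, adjusted p = 0.119) and FZD4 (0.69 ± 0.20, adjusted p = 0.0939) did not pass.

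FZD7 crossed over. It was at 103 and 90.2 CPM in early WT and 58.4 and 41.1 CPM in early dKO, a fall of 0.95 ± 0.17 on the log2 scale that passed the p threshold (adjusted p = 0.00739) but not the 2-fold limit. At P4 it was at 64.4 and 70.1 CPM in WT against 128 and 127 CPM in dKO (0.92 ± 0.13), and at day 28 at 16.7 and 17.4 CPM against 88.7 and 97.1 CPM (2.45 ± 0.14, adjusted p = 1e-09). FZD2 was at 149 and 133 CPM in early WT and 133 and 116 CPM in early dKO, at 59.4 and 55.3 against 104 and 103 CPM at P4 (0.86 ± 0.14), and at 67.7 and 65.2 against 105 and 139 CPM at day 28 (0.89 ± 0.13), below the 2-fold limit each time.

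FZD8 was at 209 and 232 CPM in early WT, 219 and 189 CPM in early dKO, 244 and 248 CPM in WT P4 and 39.0 and 43.7 CPM in dKO P4, a fall of 2.57 ± 0.19 on the log2 scale (adjusted p = 1.35e-07). At day 28 the difference was -0.37 ± 0.17 (adjusted p = 0.0917), with 141 and 133 CPM in WT against 133 and 80.2 CPM in dKO. The fall of FZD8 was therefore seen at P4 and not called at the other stages. FZD9 was at 8.99 and 5.86 CPM in early WT, 5.17 and 4.87 CPM in early dKO, 3.30 and 4.06 CPM in WT P4 and 2.54 and 1.21 CPM in dKO P4, and at day 28 at 10.7 and 7.65 CPM in WT against 1.67 and 3.61 CPM in dKO (fell by 1.73 ± 0.36, adjusted p = 0.000665; -2.42 without dKO replicate 2). FZD10, under the limit, was at 1.32 and 1.52 CPM in WT P4 and 11.8 and 10.4 CPM in dKO P4 (adjusted p = 1.92e-08). At day 28 FZD10 had 0 reads in WT and was at 4.29 and 11.4 CPM in dKO, at least 50.9-fold higher against the floor of 3 reads over the WT group.

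FZD5, a receptor of the early forebrain and eye field, moved with passage in both genotypes. It was at 347 and 399 CPM in early WT and 496 and 534 CPM in early dKO, at 20.8 and 21.6 CPM in WT P4 and 17.3 and 21.7 CPM in dKO P4, and at 215 and 214 CPM in WT against 209 and 89.5 CPM in dKO at day 28. None of the 3 genotype differences of FZD5 passed, with intervals from -0.33 to 1.24 early, -1.21 to 0.98 at P4 and -1.28 to 0.22 at day 28. FZD3, from 213 to 378 CPM, was not called in any of the 9 comparisons. Per kilobase, the Frizzled sum was 211 and 215 RPKM in early WT and 226 and 210.4 RPKM in early dKO. It was 131 and 142 RPKM in WT P4 and 129 and 136 RPKM in dKO P4. At both NPC stages the sums were close while the make-up differed. At day 28 the sum was 115 and 111 RPKM in WT against 167 and 150 RPKM in dKO. FZD8 held 46.0% and 43.2% of the sum in WT P4 and 7.43% and 7.92% in dKO P4, where FZD7 led with 21.5% and 20.2%.

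The co-receptors LRP5 and LRP6 were not called in any of the 9 comparisons. LRP5 lay between 60.7 and 116 CPM and LRP6 between 109 and 187 CPM over all 12 samples. For LRP5 the interval of the dKO over WT difference on the log2 scale was -0.37 to 0.33 early, 0.02 to 0.63 at P4 and -0.07 to 0.48 at day 28, and for LRP6 -0.56 to 0.02, -0.55 to -0.04 and -0.09 to 0.40.

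Among tested members, with all samples in, a secreted antagonist had the widest called difference between genotypes at both P4 and day 28. At day 28 the R-spondin RSPO3 was next with 6.30 ± 0.47, and it was at 8.78 without WT day 28 replicate 1. SFRP2, which binds Wnt proteins outside the cell, was at 371 and 351 CPM in early WT and 234 and 202 CPM in early dKO (-0.73 ± 0.56, adjusted p = 0.624). At P4 it was at 3.63 and 6.35 CPM in WT against 437 and 469 CPM in dKO (6.46 ± 0.77, adjusted p = 0.000525), and at day 28 at 5.92 and 4.37 CPM in WT against 247 and 840 CPM in dKO (6.73 ± 0.70, adjusted p = 0.000196). The WT samples of both later stages lay far below all other samples. The day 28 difference was 7.36 without dKO replicate 1 and 5.60 without dKO replicate 2.

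SFRP1, of the same family, was lower in dKO at the NPC stages and higher at day 28. It was at 819 and 658 CPM in early WT and 397 and 289 CPM in early dKO (fell by 1.10 ± 0.19, adjusted p = 0.0095), and at 293 and 330.2 CPM in WT P4 and 78.9 and 77.3 CPM in dKO P4 (fell by 1.99 ± 0.19, adjusted p = 3.36e-06). At day 28 it was at 19.1 and 15.4 CPM in WT against 196 and 279 CPM in dKO (3.79 ± 0.21, adjusted p = 1.49e-08). The early call was lost without WT NPC replicate 1 (-0.94, adjusted p = 0.114) and without dKO NPC replicate 2 (-0.89, adjusted p = 0.119). The 2 genotypes did not overlap at any stage.

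DKK3, a divergent member of the Dickkopf family, was at 87.3 and 122 CPM in early WT and 171 and 196 CPM in early dKO (0.78 ± 0.23, adjusted p = 0.102), at 376 and 379.7 CPM in WT P4 and 122 and 119 CPM in dKO P4 (fell by 1.64 ± 0.19, adjusted p = 1.59e-05), and at 182 and 187 CPM in WT against 94.7 and 55.7 CPM in dKO at day 28 (fell by 1.30 ± 0.19, adjusted p = 9.33e-05; -0.96 without dKO replicate 2, under the 2-fold limit). In the annotation, 47.5% of the DKK3 exon bases overlap USP47 on the other strand, and the kit does not mark strand, so reads of the 2 genes cannot be told apart there. The same holds for 21.5% of WNT2B (ST7L) and 18.9% of FZD4 (PRSS23), and 25.3% of AXIN2 is shared with the gene model ENSG00000266076 on the same strand. For the other members with an overlap it was at most 10.2% of exon bases.

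The other 7 antagonists were under the limit. DKK2, a ligand of LRP5 and LRP6, was at 0 and 11.0 CPM in early WT and 30.3 and 38.3 CPM in early dKO (2.35 ± 0.43, adjusted p = 8.83e-06 in the test over 34982 genes), and at 3.96 and 2.54 CPM in WT P4 and 8.99 and 9.18 CPM in dKO P4 (1.48 ± 0.41, adjusted p = 0.00193). DKK1, which blocks the co-receptors, had 1 read in WT at day 28 and was at 1.67 and 4.18 CPM in dKO (ratio 56.8, interval 9.41 to 2319, adjusted p = 8.55e-09). 3 low antagonists were lower in dKO. WIF1 was at 4.95 and 3.55 CPM in WT P4 against 3 reads in dKO P4 (adjusted p = 0.000329), SFRP4 at 2.64 and 3.81 CPM against 0.692 and 0.241 CPM (adjusted p = 0.00171), and SFRP5 at 1.42 and 1.49 CPM in WT at day 28 against 1 read in dKO (adjusted p = 0.0109). DKK4 and NOTUM, an enzyme that removes the Wnt lipid, reached at most 6 and 12 reads.

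Per kilobase, the antagonist sum was 367 and 329 RPKM in early WT, 226 and 190 RPKM in early dKO, 103 and 110 RPKM in WT P4, 253 and 267 RPKM in dKO P4, 24.1 and 23.1 RPKM in WT at day 28 and 175 and 488 RPKM in dKO at day 28. SFRP2 held 86.6% and 88.0% of the sum in dKO P4 and 70.5% and 86.3% in dKO at day 28. In WT, SFRP1 led at P4 with 60.1% and 63.6% and DKK3 at day 28 with 63.0% and 67.9%. The DKK3 share carries the overlap with USP47 given above.

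LEF1 and TCF7, the nuclear partners of beta-catenin among the members, were higher in dKO at both later stages. LEF1 was at 43.6 and 44.0 CPM in early WT and 23.6 and 13.2 CPM in early dKO (-1.26 ± 0.41, adjusted p = 0.140), at 6.93 and 5.58 CPM in WT P4 and 26.1 and 30.2 CPM in dKO P4 (2.18 ± 0.37, adjusted p = 0.000374), and at 10.3 and 9.73 CPM in WT against 23.4 and 50.0 CPM in dKO at day 28 (1.89 ± 0.29, adjusted p = 0.000125; 1.23 without dKO replicate 2). TCF7 was at 12.8 and 15.4 CPM in early WT and 14.0 and 8.35 CPM in early dKO, at 2.31 and 3.05 against 16.6 and 22.0 CPM at P4 (2.82 ± 0.39, adjusted p = 2.2e-05), and at 2.72 and 2.38 against 12.2 and 24.5 CPM at day 28 (2.86 ± 0.33, adjusted p = 2.1e-06; 2.25 without dKO replicate 2). Both genes fell in WT and did not overlap between genotypes at the later stages.

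AXIN2 and NKD1 are feedback inhibitors whose transcription beta-catenin switches on: AXIN2 is a scaffold of the destruction complex and NKD1 binds Dishevelled. AXIN2 was at 19.3 and 29.3 CPM in early WT and 22.9 and 18.8 CPM in early dKO, at 19.8 and 18.0 against 51.0 and 55.3 CPM at P4 (1.50 ± 0.30, adjusted p = 0.00143), and at 18.2 and 20.4 against 28.4 and 61.4 CPM at day 28 (1.23 ± 0.27, adjusted p = 0.00222). The day 28 call rested on dKO replicate 2, without which the difference was 0.56. NKD1 was at 14.1 and 13.9 CPM in early WT and 8.12 and 4.18 CPM in early dKO, at 12.5 and 14.7 against 29.7 and 32.4 CPM at P4 (1.18 ± 0.22, adjusted p = 0.000382), and at 39.4 and 35.2 against 15.7 and 24.3 CPM at day 28, a fall of 0.88 ± 0.19 below the 2-fold limit. Both feedback genes were called higher in dKO at P4, and the WT and dKO samples of each did not overlap there.

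**Figure D5:**
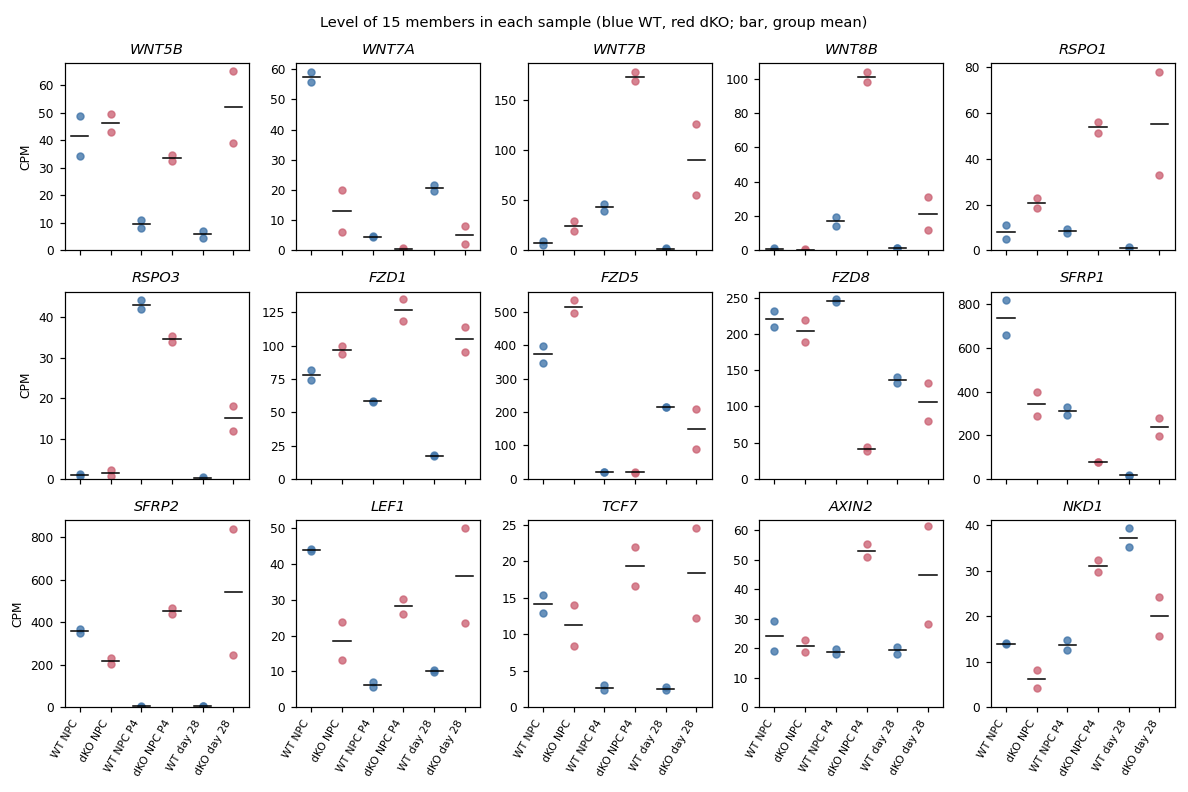
CPM of 15 members in each sample (points), with the group mean (bar), WT in blue and dKO in red, on axes that start at 0. SFRP2, LEF1 and TCF7 are lower in WT P4 and WT day 28 samples than in the dKO samples of the same stage, FZD5 is near 20 CPM in all 4 P4 samples, and the 2 dKO day 28 points of SFRP2, AXIN2 and RSPO1 lie far apart.

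Promoter windows of 300 bases, from 250 before to 50 after the start, were found in RefSeq (GRCh38.p14) for 32 of the 49 members, as 36 windows. CpG sites, whose density marks the promoters that Polycomb proteins and H3K27 methylation tend to occupy, numbered 3 to 53 in these windows with a median of 28, against a median of 14 over 35116 windows of all genes. The windows of 4 members called between genotypes are shown, with CpG sites in capitals. They were picked to range from few sites to many, and 3 of the genes were higher and 1 lower in dKO. Other members called higher in dKO had many sites, such as WNT9A with 53, WNT4 with 47 and FZD4 with 40. The 4 windows therefore do not show whether site number goes with direction. The windows are chr3:13880022-13880321 (minus strand) for WNT7A with 40 sites, chr10:100462759-100463058 (plus strand) for WNT8B with 4, chr4:153789034-153789333 (minus strand) for SFRP2 with 15, and chr4:108166252-108166551 (minus strand) for LEF1 with 9, which lies inside the gene's outermost annotated limits.
WNT7A: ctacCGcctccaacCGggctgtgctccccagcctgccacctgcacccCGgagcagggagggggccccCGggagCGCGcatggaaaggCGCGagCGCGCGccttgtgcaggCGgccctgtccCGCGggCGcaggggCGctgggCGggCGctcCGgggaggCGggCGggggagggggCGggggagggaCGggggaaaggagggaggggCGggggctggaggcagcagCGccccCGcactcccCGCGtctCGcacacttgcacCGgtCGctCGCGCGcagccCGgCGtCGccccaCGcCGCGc
WNT8B: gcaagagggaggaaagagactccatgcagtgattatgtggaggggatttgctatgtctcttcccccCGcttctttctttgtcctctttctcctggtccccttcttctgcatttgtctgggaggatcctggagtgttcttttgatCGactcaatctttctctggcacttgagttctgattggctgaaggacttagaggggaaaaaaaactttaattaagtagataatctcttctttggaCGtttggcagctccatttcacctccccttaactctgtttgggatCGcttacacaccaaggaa
SFRP2: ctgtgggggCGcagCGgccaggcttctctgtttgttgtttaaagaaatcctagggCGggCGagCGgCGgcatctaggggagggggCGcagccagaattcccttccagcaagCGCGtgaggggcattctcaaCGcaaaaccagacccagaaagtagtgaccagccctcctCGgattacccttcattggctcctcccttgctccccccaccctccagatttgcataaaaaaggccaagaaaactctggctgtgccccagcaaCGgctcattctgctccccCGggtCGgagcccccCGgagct
LEF1: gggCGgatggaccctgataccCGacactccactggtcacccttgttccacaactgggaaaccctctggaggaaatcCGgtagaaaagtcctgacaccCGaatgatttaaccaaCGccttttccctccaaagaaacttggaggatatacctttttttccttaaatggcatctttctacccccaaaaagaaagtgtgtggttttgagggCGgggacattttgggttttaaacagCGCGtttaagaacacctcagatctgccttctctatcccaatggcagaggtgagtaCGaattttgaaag

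The motif CTTTGA, the core that LEF1 and TCF proteins favour, was searched on both strands of each window. It lay in 12.9% of all windows and in 1 of the 36 member windows, that of DKK1. These letters were not in the 4 windows shown, which says nothing of sites elsewhere.

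Receptors, ligands and antagonists were among the members that fell with differentiation in WT. From early NPCs to day 28, 12 of 29 members fell in WT, against 11.3% of all genes, and 3 rose, against 12.3%. SFRP2 fell by 6.14 ± 0.70 on the log2 scale (adjusted p = 0.000494), SFRP1 fell by 5.42 ± 0.22 (adjusted p = 3.2e-09) and WNT5B by 2.79 ± 0.33 (adjusted p = 8.48e-06). WNT5A, WNT7A, RSPO1, FZD1, FZD2, FZD4, FZD7, LEF1 and TCF7 fell too, by 1.08 (FZD2) to 3.39 (RSPO1). The 3 that rose were WNT4 by 2.96 ± 0.55, WNT2B by 1.50 ± 0.29 and NKD1 by 1.40 ± 0.28. The other 14 were not called, among them AXIN2 (-0.39 ± 0.38, adjusted p = 0.425), and of the 28 genes of the beta-catenin route inside the cell 6 rose and 2 fell. The call of NKD1 was lost with GC and length offsets (0.88, below the 2-fold limit), that of RSPO1 with the same offsets (adjusted p = 0.0678) and without WT NPC replicate 2 (adjusted p = 0.324), and that of WNT7A without either sample of either group (adjusted p from 0.0552 to 0.0764).

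In dKO cells over the same step, 6 of 29 members rose and 2 fell, against 2.50% and 2.50% of all genes. WNT4, WNT7B, WNT8B, RSPO2, RSPO3 and NKD1 rose, and FZD5 and DKK3 fell. WNT8B had a ratio of 62.9 (counting interval 11.2 to 2495) and RSPO2 was at least 13.8-fold higher against the floor of 3 reads over the early dKO group. DKK3 fell by 1.30 ± 0.21 (adjusted p = 0.00145) and FZD5 by 1.80 ± 0.33 (adjusted p = 0.0145). These calls depended on the samples: with 1 sample left out, between 4 and 17 members were called, 17 without dKO day 28 replicate 1 and 4 without dKO NPC replicate 2.

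In both genotypes, members were called between early NPCs and P4. From early NPCs to P4, 5 of 29 members rose in WT, against 9.57% of all genes, and 10 fell, against 8.93%. In dKO, 11 rose, against 3.61%, and 4 fell, against 4.37%. The 2 comparisons share no samples. WNT7B, WNT8B, RSPO2 and RSPO3 rose in both, and WNT7A, FZD5 and SFRP1 fell in both.

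FZD5 fell by 4.15 ± 0.41 on the log2 scale in WT (adjusted p = 0.00016) and by 4.72 ± 0.40 in dKO (adjusted p = 0.00021). RSPO3 had a ratio of 46.1 in WT (counting interval 12.7 to 383) and rose by 4.57 ± 0.49 in dKO (adjusted p = 1.1e-05). WNT8B had a ratio of 35.7 in WT (interval 6.28 to 1421) and 281 in dKO (interval 50.3 to 11117). RSPO2 had a ratio of 28.0 in WT (interval 4.90 to 1117) and was at least 26.1-fold higher in dKO against the floor of 3 reads over the early dKO group. The members that fell in WT alone were WNT5A, WNT5B, FZD2, FZD4, SFRP2, LEF1 and TCF7, and DKK3 rose by 1.82 ± 0.21. Those that rose in dKO alone were WNT2B, WNT4, WNT9A, FZD6, FZD7, AXIN2 and NKD1, and FZD8 fell by 2.30 ± 0.20. With 1 sample left out, the rise of WNT7B in WT (adjusted p up to 0.0891), of WNT8B in WT (0.116 without WT NPC replicate 2), and of AXIN2, WNT4 and WNT9A in dKO (up to 0.147, 0.0995 and 0.214) lost their calls. So did the fall of WNT7A in dKO without dKO NPC replicate 1 (adjusted p = 0.0511), while WNT5A in WT (-0.92 without WT P4 replicate 1) and FZD6 in dKO (0.97 without dKO NPC replicate 2) dropped below the 2-fold limit. A call in 1 genotype alone does not show that the genotypes differed; the interaction tests that.

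The interaction, the change in dKO minus the change in WT, was called for 15 of 29 members over differentiation, against 20.2% of all genes, and for 11 of 29 over passage, against 15.3%. SFRP2, LEF1, TCF7, WNT5A, WNT5B, FZD2, FZD7, DKK3 and AXIN2 were called in both, which share the early samples. WNT7A, with 0.07 over differentiation (interval -1.59 to 1.73) and -1.06 over passage (interval -3.58 to 1.47), was called in neither.

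Genes of the pathway outside the 49 were counted in 5 lists, to be read against the shares of all genes called: 11.0% higher and 11.1% lower at P4, 12.4% and 11.7% at day 28, and 0.981% higher in early NPCs. Of 12 tested genes for Wnt secretion and surface cofactors, 7 were higher and 1 lower in dKO at P4, with a median log2 difference of 1.36 against 0.02 over all genes, and 3 were higher and 1 lower at day 28 (median 0.48 against 0.00). At P4 the genes furthest above WT were TPBG, a surface protein that dampens Wnt signalling (3.18 ± 0.45, adjusted p = 0.000926), and the heparan sulphate proteoglycan GPC3 (2.54 ± 0.16, adjusted p = 2.11e-09). In dKO, GPC3 was at 137 and 141 CPM in early NPCs and 126 and 127 CPM at P4. In WT it went from 84.7 and 103 CPM to 17.5 and 25.6 CPM. NDP, which encodes Norrin, was lower in dKO at P4 by 5.36 ± 0.43 (adjusted p = 4.74e-08), with 27.4 and 23.9 CPM in WT against 0.461 and 0.724 CPM. At day 28 TPBG was at 16.3 and 16.7 CPM in WT against 118 and 325 CPM in dKO (3.75 ± 0.47). TSPAN12, a partner of FZD4, was at 7.10 and 8.04 against 16.9 and 19.2 CPM (1.25 ± 0.20), and NDP at 2.96 and 2.78 against 1.43 and 0.950 CPM (fell by 1.27 ± 0.45, adjusted p = 0.0255).

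Of 5 tested genes for other secreted antagonists, 2 were higher and 2 lower at P4, 3 higher and 1 lower at day 28, and 1 higher in early NPCs, with medians of 0.92 at P4 and 1.12 at day 28. FRZB, a further SFRP family member, was higher in dKO early (1.05 ± 0.21, adjusted p = 0.0135) and at P4 (2.16 ± 0.19, adjusted p = 1.13e-07), and at day 28 it was at 191 and 193 CPM in WT against 37.2 and 37.8 CPM in dKO (fell by 2.35 ± 0.16, adjusted p = 5.05e-09). SOSTDC1 was higher at P4 (2.45 ± 0.47, adjusted p = 0.000407) and at day 28, with 1.42 and 2.18 against 16.7 and 10.3 CPM (2.85 ± 0.35, adjusted p = 4.02e-06). At P4 DRAXIN was lower in dKO than in WT by 1.59 ± 0.15 and APCDD1 by 1.17 ± 0.38, though both were above early NPCs in each genotype. DRAXIN went from 37.2 and 46.2 CPM to 162 and 156 CPM in WT. In dKO it went from 37.7 and 41.8 CPM to 53.5 and 51.4 CPM. APCDD1 went from 5.13 and 2.93 CPM to 50.8 and 55.8 CPM in WT. In dKO it went from 5.91 and 5.57 CPM to 21.4 and 25.8 CPM. At day 28 APCDD1 was at 11.0 and 9.63 CPM in WT against 15.3 and 45.0 CPM in dKO (1.58 ± 0.39, adjusted p = 0.00653), a difference mostly from dKO replicate 2.

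The beta-catenin route inside the cell had called genes in both directions. Of 28 genes, 2 were higher and 6 lower in dKO at P4 (median difference 0.05 against 0.02 over all genes), and 1 was higher and 7 lower at day 28 (median -0.15 against 0.00). TLE2, a co-repressor, was lower in dKO than in WT at P4 by 3.96 ± 0.63 (adjusted p = 0.000468). At day 28 TLE2 was at 107 and 107 CPM in WT against 7.63 and 1.14 CPM in dKO (-4.70 ± 0.41, adjusted p = 4.24e-06). APC, of the destruction complex, was lower in dKO than in WT at P4 by 2.83 ± 0.15 (adjusted p = 3.27e-10). In WT it went from 86.0 and 104 CPM in early NPCs to 548 and 685 CPM at P4. In dKO it went from 105 and 104 CPM to 77.0 and 96.1 CPM. DACT3 was at 71.4 and 69.9 CPM in WT against 15.7 and 7.03 CPM in dKO at day 28 (lower by 2.66 ± 0.25, adjusted p = 6e-07). TCF7L1 was higher in dKO at P4 (1.47 ± 0.19) and at day 28, with 19.7 and 21.0 against 68.4 and 99.2 CPM (2.05 ± 0.17, adjusted p = 4.08e-08), and TLE4 at P4 (1.21 ± 0.13).

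Of 13 planar polarity genes and receptors that act without beta-catenin, 4 were higher and 1 lower at P4, and 5 higher and 1 lower at day 28, with medians of 0.28 and 0.73. ROR2, a receptor of WNT5A, rose by 4.52 ± 0.30 at P4 (adjusted p = 4.64e-09) and at day 28 was at 0.474 and 0.497 CPM in WT against 21.9 and 26.4 CPM in dKO (5.56 ± 0.29, adjusted p = 3.9e-10). ROR1 rose by 1.36 ± 0.41 at P4, and at day 28 was at 2.84 and 2.09 against 16.5 and 40.5 CPM (3.55 ± 0.41). DAAM1 was lower in dKO at P4 by 1.44 ± 0.13. CELSR3 was at 347 and 346 CPM in WT against 105 and 102 CPM in dKO at day 28 (lower in dKO by 1.74 ± 0.10). PRICKLE2 was the 1 gene of the list called early (1.42 ± 0.27, adjusted p = 0.0101).

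Of 8 tested genes reported as beta-catenin targets, 4 were higher and 1 lower at P4 (median difference 1.33 against 0.02 over all genes), and 5 were higher at day 28 (median 1.32 against 0.00). MSX2 was at 1.98 and 1.02 CPM in WT P4 and 87.2 and 84.0 CPM in dKO P4 (5.87 ± 0.72, adjusted p = 0.000422), and at day 28 it had 0 reads in WT and was at 2.86 and 14.6 CPM in dKO. MSX1, which is also in the list of dorsal midline markers, rose by 3.22 ± 0.47 at P4 (adjusted p = 8.77e-05), and SALL4 was at 2.01 and 2.48 against 52.7 and 86.6 CPM at day 28 (4.94 ± 0.25, adjusted p = 3.34e-10). TCF4 was lower in dKO than in WT at P4 by 1.42 ± 0.10 (adjusted p = 1.5e-08). In WT it went from 160 and 158 CPM in early NPCs to 393 and 448 CPM at P4. In dKO it went from 152 and 152 CPM to 160 and 152 CPM.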

How the data were processed

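Raw read counts per gene were deposited by the authors for 12 samples, 1 file a sample with 58302 Ensembl genes. Per the submitters' processing notes and the study's methods, reads from unstranded TruSeq libraries were aligned to hg38 with HISAT2 2.0.4, handled with SAMtools 1.3.1 and counted with HTSeq 0.6.0; the annotation release and the strand setting are not given in the sources used here. The authors' later filter, GC and length adjustment and DESeq 1.18.1 test are not in the deposited counts. Symbols, positions and merged exon lengths were taken from GENCODE 44 (hg38), which held 98.7% of the genes.

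Counts were fitted with edgeR 4.0.16 in R 4.3.3: TMM library sizes, robust quasi-likelihood fit of 6 groups without covariates, 13454 genes (mean count 20 or more), Benjamini-Hochberg adjustment over all of them. A call needed an adjusted p below 0.05 and a fold change above 2. CPM uses the TMM library sizes, and RPKM is CPM per kilobase of merged exons. The SE of a log2 difference was worked back from the test, as the size of the difference over the square root of the F statistic. Intervals of a log2 difference are 95% intervals from this SE and the test's degrees of freedom. Ratios of groups with at most 3 reads carry exact counting intervals. With 2 samples a group, an exact permutation test cannot go below 0.333. No batch is named in the labels, so batch and group cannot be told apart. The scripts were tested on simulated counts.

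The members and the lists were chosen with earlier results of these data known. Values in every sample are given for members called in a dKO against WT comparison or in an interaction, and of each other list the 2 widest called rises and 2 widest called falls. WNT2B, FZD3, FZD5, LRP5, LRP6 and members under the filter are described by range or by samples. Alternatives were DESeq2 1.42.0, 3 other filters, an unadjusted p, a fit of the compared samples alone, GC and length offsets, a replicate block, and leaving out each sample.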

Additional observations from a re-analysis of the deposited data

Results flagged for a closer look

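These members changed differently in the 2 genotypes by the interaction term of the edgeR fit; each value is the log2 change in dKO minus that in WT. Over differentiation, from early NPCs to day 28, the secreted antagonists SFRP2 (7.46) and SFRP1 (4.90) were higher and DKK3 (-2.08) was lower. The R-spondins RSPO3 (5.70) and RSPO1 (4.81) were higher, as were the ligands WNT7B (3.95), WNT5B (2.97) and WNT5A (1.56). The receptors FZD7 (3.40), FZD1 (2.30), FZD6 (1.23) and FZD2 (1.06) were higher, and so were TCF7 (3.23), LEF1 (3.15) and AXIN2 (1.52). The RSPO3 value rests on groups with few reads, 2 in early WT and 3 at day 28 of WT.

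Over passage, from early NPCs to P4, SFRP2 (7.19), LEF1 (3.44), TCF7 (3.19), NKD1 (2.38), FZD7 (1.87), AXIN2 (1.78), WNT5B (1.60), WNT5A (1.31) and FZD2 (1.04) were higher, and FZD8 (-2.45) and DKK3 (-2.42) were lower. The early samples enter both sets. AXIN2 was lost from the differentiation set in 11 of the 12 fits that left out 1 sample and from the passage set in several (adjusted p up to 0.266). FZD2 fell below the 2-fold limit in both sets in fits without 1 sample, and WNT5B left the passage set in others (adjusted p up to 0.0727). Without WT NPC replicate 2, RSPO1, WNT7B and FZD6 were lost from the differentiation set (adjusted p = 0.205, 0.308 and 0.172), and WNT7B also in 3 further fits without 1 sample (0.0544 to 0.063). RSPO3 was lost without WT NPC replicate 1 (0.137), WT NPC replicate 2 (0.109) or dKO NPC replicate 2 (0.0548), in a fit of the compared samples alone (0.0563) and with GC and length offsets (3.71, adjusted p = 0.0895).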

How the results depend on the processing

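None of the called values reversed direction under these alternatives. Of 121 calls over the 9 comparisons, 87 held wherever the gene was tested and 34 were lost at least once. Members called in dKO against WT NPCs numbered 2, and 4 with genes of at least 1 count, 1 with at least 10 counts in every sample, 5 in a fit of the compared samples alone, 5 with an unadjusted p, and 0 to 5 with 1 sample left out. In dKO at day 28 against dKO NPCs they numbered 8, and 18, 2, 5 and 13 under the same settings and 4 to 17 with 1 sample left out. The filter of at least 10 counts in every sample, which tests fewer members, left 11 at P4 and 11 at day 28 for dKO against WT, 9 for WT at day 28 against NPCs, 9 for WT over passage and 6 for dKO over passage. Other counts stayed within 1.5 times: dKO against WT gave 18 to 20 at P4 and 19 to 23 at day 28 with 1 sample left out, and DESeq2 gave 3, 19 and 20 for the 3 stages and lost 1 call, RSPO2 at P4. GC and length offsets lost 5 calls.

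Same-numbered samples did not deviate together (mean r = 0.0176 over 15 pairs of groups, -0.058 to 0.194). With 2 samples a group, this showed no pairing by number but could not exclude it. With the replicate block, 2, 20 and 20 members were called between genotypes in early NPCs, at P4 and at day 28; 16 and 9 were called for WT and dKO over differentiation and 15 and 16 over passage, with 15 and 11 interactions, and no call was lost. The early NPC samples were the shallowest, and 3 reads there gave 2.09 to 3.85 CPM, so differences of members under that level were not detectable at this depth.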
